A study of Mus musculus with 6 samples.

Results

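Endothelin and angiotensin are the main vasoconstrictor systems that act on hepatic stellate cells, and 8 genes of these systems were followed here among the 24940 genes of the deposited exon count table. The genes were taken by symbol: Edn1 (the precursor of endothelin-1), Ece1 and Ece2 (endothelin-converting enzymes), Ednra and Ednrb (the endothelin receptors ETA and ETB), Agt (angiotensinogen), Ace (angiotensin-converting enzyme) and Agtr1a (the angiotensin II receptor AT1a). Stellate cells are the pericytes of the liver sinusoid. The cells were primary cultures from wild-type female C57BL/6JBomTac mice, whose age the labels do not state. On day 2 after isolation they received 10 µM obeticholic acid (OCA), an agonist of the bile acid receptor FXR, or the same volume of the vehicle DMSO (1:1000), and 3 h later 500 nM vasoactive intestinal peptide (VIP), a neuropeptide that raises cAMP, for 3 h more. There were 3 libraries of polyadenylated RNA with vehicle and VIP (DMSO+VIP) and 3 with OCA and VIP (OCA+VIP). VIP was present in all 6, so the comparison is of OCA against vehicle before VIP. The labels do not tie these libraries to different mice or dishes, so p-values measure the spread between these libraries, which may be technical.

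Endothelin-1 is cut from a large precursor by furin-type proteases and then by endothelin-converting enzymes at the cell surface. ETA couples mainly to Gq and drives contraction, while ETB also clears endothelin and, on endothelium, releases nitric oxide. Angiotensin II is cut from angiotensinogen, a plasma protein made chiefly by hepatocytes, by renin and then by angiotensin-converting enzyme, and AT1 receptors signal through Gq as ETA does. In liver, activated stellate cells contract and make matrix in response to both peptides, and these cells express both endothelin receptors.

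The counts summed to 2.84e+06 to 4.57e+06 in the DMSO+VIP libraries and to 4.53e+06 to 9.95e+06 in the OCA+VIP libraries. Low counts came mostly in steps of about 6: of the counts up to 30, 55.6% to 58.2% lay within 0.5 of a multiple of 6 in 5 libraries and 37.5% in OCA+VIP library 2, the deepest, where an even spread gives 25%. A count of 18 over the 3 libraries of a group, or 3 such steps, was therefore set as the floor, the most that a gene listed at 0 could hold. The floor is 1.61 CPM (a count scaled to the total of its library, in the usual CPM unit) with vehicle, and with OCA it is 0.887 CPM. It covers counting error only. All 15 stellate cell markers on the list had counts, with sums of 881 to 1130 CPM in the DMSO+VIP and 1040 to 1160 CPM in the OCA+VIP libraries. Within that sum Hgf fell 4.32-fold and Des 1.43-fold, Ecm1, Dcn, Colec11 and Ngfr rose 1.83- to 4.49-fold, and 9 did not pass. Of 15 hepatocyte markers, 8 of 11 tested rose and Ass1 fell (5.72% of all tested genes rose and 6.04% fell). Among the 8, Ttr and Serpina1b had no counts with vehicle, and Cyp2e1 had 9, 6 and 6 in DMSO+VIP libraries 1 to 3. These genes passed the count filter through their OCA+VIP counts only. Fgb (6.5, 0 and 12 counts in those libraries) and Ahsg (18, 13 and 6) would not have passed it on vehicle counts alone. The calls of all these genes as higher are therefore a description. The 15 hepatocyte markers summed to 176 to 202 CPM in vehicle libraries and 297 to 469 CPM in OCA libraries, with Cps1 and Tat at 0. Of 15 endothelial markers, Lyve1, Fcgr2b, Emcn and Erg were at 0, and none of the 4 tested was called in either direction. All 15 summed to 465 to 526 CPM in vehicle libraries and 423 to 452 CPM in OCA libraries. Most of this was Eng, which stellate cells also express and which did not pass (log2 fold change -0.24). Without Eng the other 14 summed to 5.76 to 9.84 CPM in vehicle libraries and 9.37 to 21.3 CPM in OCA libraries. In macrophage markers 7 of 15 were at 0 (sums of 15.3 to 53.7 and 33.6 to 47.4 CPM), and neither of the pair tested was called. Leukocyte markers were at 0 but for Cd79a, which had no counts with vehicle and 27.5, 36.5 and 48.5 counts in OCA+VIP libraries 1 to 3. Cd79a passed the count filter through its OCA+VIP counts only, so its call as higher is a description. The 10 smooth muscle or portal fibroblast markers summed to 175 to 196 CPM in vehicle libraries and 230 to 255 CPM in OCA libraries; Smtn rose 1.61-fold, Fbln2 fell 4.12-fold, and Lmod1, Actg2 and Thy1 were at 0. The 8 cholangiocyte markers summed to 6.16 to 14.9 CPM and 17.3 to 21.6 CPM, with Krt7 and Cldn4 among those at 0 and neither of the pair tested called. The part of these marker lists in the differences that follow was not tested.

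The promoters of the receptor genes are shown because RNA of both receptors was lower with OCA (values follow). Each window runs from 250 bases before to 50 bases after an annotated start (RefSeq, GRCm38.p6), on the minus strand, written 5′ to 3′, and capitals mark matches to the motifs searched. The Ednra window lies at chr8:77724403-77724702 and its start is that of the counted transcript. The Ednrb window lies at chr14:103843652-103843951, and its start is 775 bases downstream of the start of the counted transcript.
Ednra: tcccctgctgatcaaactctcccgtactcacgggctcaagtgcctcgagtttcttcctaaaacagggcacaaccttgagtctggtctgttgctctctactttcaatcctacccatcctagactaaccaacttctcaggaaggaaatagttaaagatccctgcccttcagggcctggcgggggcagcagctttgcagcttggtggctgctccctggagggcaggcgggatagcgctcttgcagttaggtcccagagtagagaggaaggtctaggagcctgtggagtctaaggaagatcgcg
Ednrb: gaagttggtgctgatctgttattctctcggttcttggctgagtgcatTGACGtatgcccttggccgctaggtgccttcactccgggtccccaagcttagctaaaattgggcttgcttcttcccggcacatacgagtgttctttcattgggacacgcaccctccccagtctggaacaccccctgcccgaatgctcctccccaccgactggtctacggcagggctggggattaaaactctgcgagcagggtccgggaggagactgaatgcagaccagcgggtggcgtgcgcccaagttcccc

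The motifs were searched on both strands: the CRE core TGACG, the full CRE TGACGTCA (which contains the core), the AP-1 site TGANTCA, the nuclear receptor core AGGTCA, the inverted repeat of that core with a spacer of a single base, which FXR can bind, and the TEAD site GGAATG. In the Ednrb window a single match was found, a CRE core whose first base is at -203 from the start. No motif searched was in the letters of the Ednra window. The CRE core is in 20.8% of all 32851 promoter windows of this length, the AP-1 site in 7.81%, the nuclear receptor core in 16.3%, the TEAD site in 14.7%, the full CRE in 1.79% and the inverted repeat in 0.00913%. Of the 7 genes of the set with a window, Edn1 held a TEAD site and Ace a nuclear receptor core, and the 4 windows of Ece1, the 1 of Ece2 and the 1 of Agt held no match. Agtr1a had no entry.

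RNA of both endothelin receptors and of the converting enzyme Ece1 was lower with OCA, in every OCA+VIP library below every DMSO+VIP library. Ednra was 3.29-fold lower, Ednrb 2.41-fold and Ece1 1.59-fold. Agtr1a did not pass the test, and Edn1, Ece2, Ace and Agt had too few counts to be tested. Across all 11286 genes tested, 11.8% passed at an adjusted p of 0.05 (6.04% lower and 5.72% higher with OCA). In 13.9% of these genes every OCA+VIP library was below every DMSO+VIP library. The genes were chosen with earlier results of these data known, so a count of 3 lower among the 4 tested is a description of them.

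**Figure D1:**
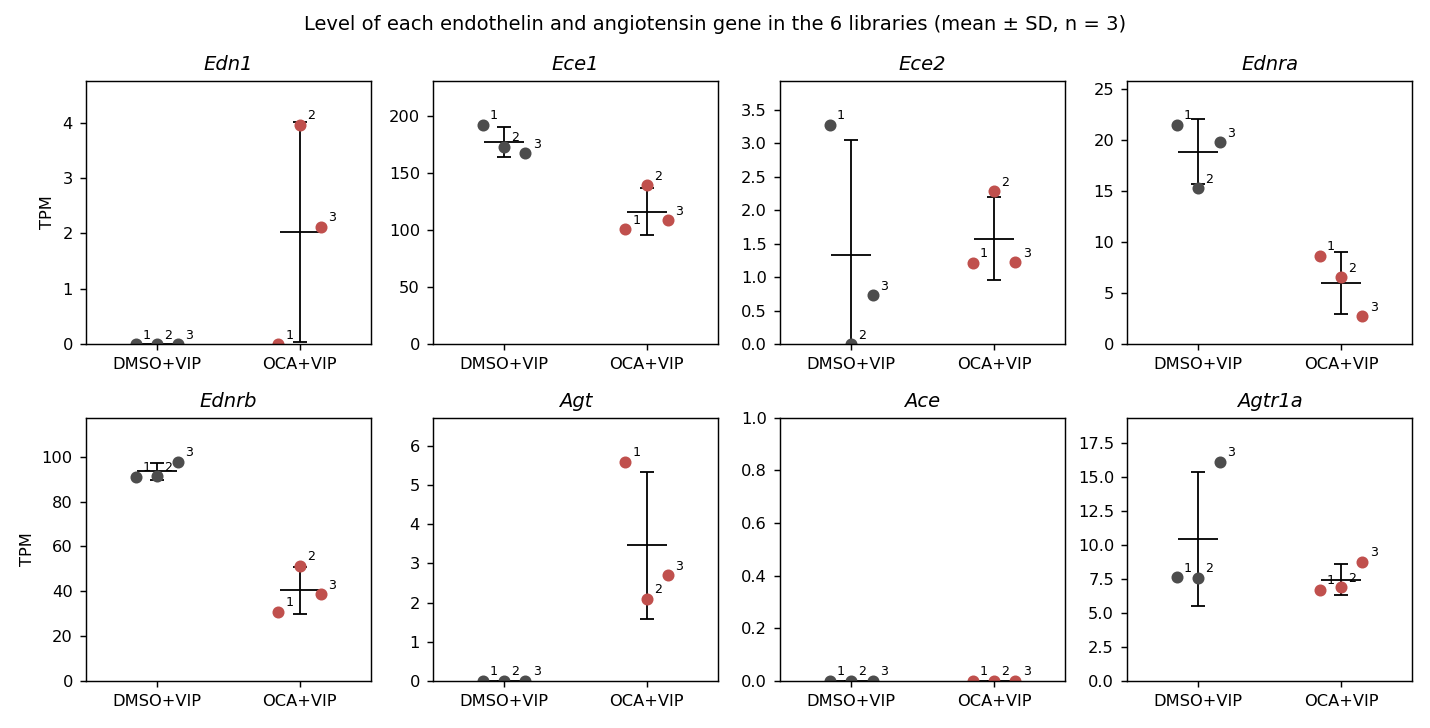
Level in TPM (vertical axes, each from 0) of the 8 genes in the 6 libraries; points are libraries 1 to 3 of each group, and bars are the mean and SD (n = 3). Ece1, Ednra and Ednrb lie lower in all 3 OCA+VIP libraries, Agtr1a overlaps between groups, and Edn1 and Agt have counts in OCA+VIP libraries only.

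Levels are compared between genes as TPM, for which counts are divided by exon length before they are scaled to the library. In the DMSO+VIP libraries the order was Ece1, Ednrb, Ednra, Agtr1a and Ece2, and these had a higher level than 94.8%, 89.4%, 70.4%, 64.8% and 51.9% of the genes in the table. These shares include the genes without counts in the DMSO+VIP libraries, which all share rank 13909 of 24940. Ece2 lay above little more than such genes. By group means, the level of Ece1 was 1.9 times that of Ednrb, the level of Ednrb 4.96 times that of Ednra, and the level of Ednra 1.81 times that of Agtr1a. This order of Ece1, Ednrb, Ednra and Agtr1a held within each DMSO+VIP library. Ednra and Agtr1a were closest in DMSO+VIP library 3, at 19.8 and 16.1 TPM. With OCA the order by group mean became Ece1, Ednrb, Agtr1a and Ednra. Ednra was below Agtr1a in OCA+VIP libraries 2 and 3 but above it in OCA+VIP library 1 (8.68 against 6.69 TPM).

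Ednra encodes ETA, the receptor that mediates endothelin-driven contraction (chromosome 8, 77663029 to 77724452, minus strand, mm10). Its level was 21.5, 15.3 and 19.8 TPM in DMSO+VIP libraries 1 to 3 and 8.68, 6.55 and 2.72 TPM in OCA+VIP libraries 1 to 3. The groups did not overlap, and OCA+VIP library 3 was the lowest, at 14.4% of the DMSO+VIP mean, against 46.1% and 34.7% in OCA+VIP libraries 1 and 2. The group means were 18.9 ± 3.19 and 5.98 ± 3.02 TPM (SD, n = 3). The log2 fold change was -1.72 (SE 0.36, 95% interval -2.46 to -0.97, edgeR adjusted p = 0.0028). Its counts were 60, 93 and 24 in the OCA+VIP libraries, the last 4 steps of 6. The log2 fold change was -1.38 (edgeR adjusted p = 0.021) when OCA+VIP library 3 was left out, and -2.12 (0.0021) when OCA+VIP library 1 was. The call held in all 15 alternative fits, and the exons share 1.66% of their bases with an antisense transcript.

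Ednrb encodes ETB, the receptor that binds all endothelins with like affinity (chromosome 14, 103814615 to 103844476, minus strand). Its level was 91.1, 91.4 and 97.8 TPM in DMSO+VIP libraries 1 to 3, and 30.9, 51.3 and 38.7 TPM in OCA+VIP libraries 1 to 3. The vehicle libraries lay close together, and all 3 OCA+VIP libraries lay at 33.1% to 54.9% of their mean. The group means were 93.5 ± 3.80 and 40.3 ± 10.3 TPM (n = 3). With a log2 fold change of -1.27 (SE 0.14, 95% interval -1.56 to -0.97, edgeR adjusted p = 3.04e-06), it was the gene of the set with the smallest p. Leaving out any 1 library gave -1.40 to -1.16. The RNA of ETB is also made by liver endothelium, whose 14 markers other than Eng together reached at most 21.3 CPM in any library, against 54.3 to 173 CPM of Ednrb; their part in the difference was not tested. In such bulk samples, fewer cells of a type and less RNA per cell cannot be told apart.

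**Figure D2:**
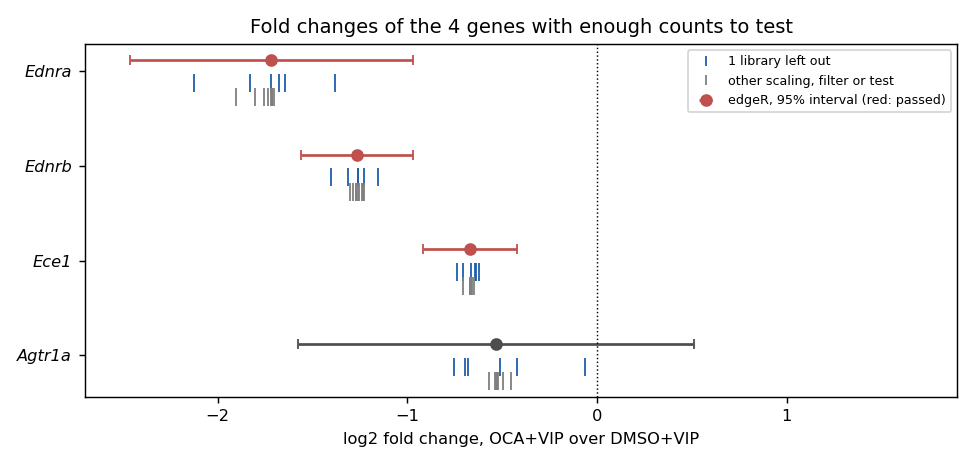
Log2 fold change of OCA+VIP over DMSO+VIP (horizontal axis) for the 4 genes with enough counts to test; circles are the edgeR estimate with its 95% interval, red where it passed, and ticks are the fits without 1 library (blue) and with another scaling, filter or test (grey). All ticks of Ednra, Ednrb and Ece1 lie below -0.6, while the interval of Agtr1a runs from -1.58 to 0.51.

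As the sum of Ednra and Ednrb, endothelin receptor RNA was 113, 107 and 118 TPM in the DMSO+VIP libraries and 39.6, 57.9 and 41.4 TPM in the OCA+VIP libraries. The means were 112 ± 5.45 and 46.3 ± 10.1 TPM (n = 3 each), and the groups did not overlap. An exact two-sided permutation test over the 6 libraries gave p = 0.10, the smallest it can give with 3 against 3. The receptors were not shown to fall to different extents. The level of Ednrb was 4.24, 5.97 and 4.95 times that of Ednra with DMSO+VIP and 3.56, 7.84 and 14.3 times with OCA+VIP. These ratios overlap between groups, and the mean log2 ratio of Ednra to Ednrb differed by -0.56 (exact permutation test, two-sided, p = 0.50). That difference rests on OCA+VIP library 3, where only 24 counts of Ednra were seen: without it the value was -0.079. It was -1.08 and -0.51 when OCA+VIP library 1 or 2 was dropped, and -0.44, -0.68 and -0.55 without DMSO+VIP library 1, 2 or 3.

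**Figure D3:**
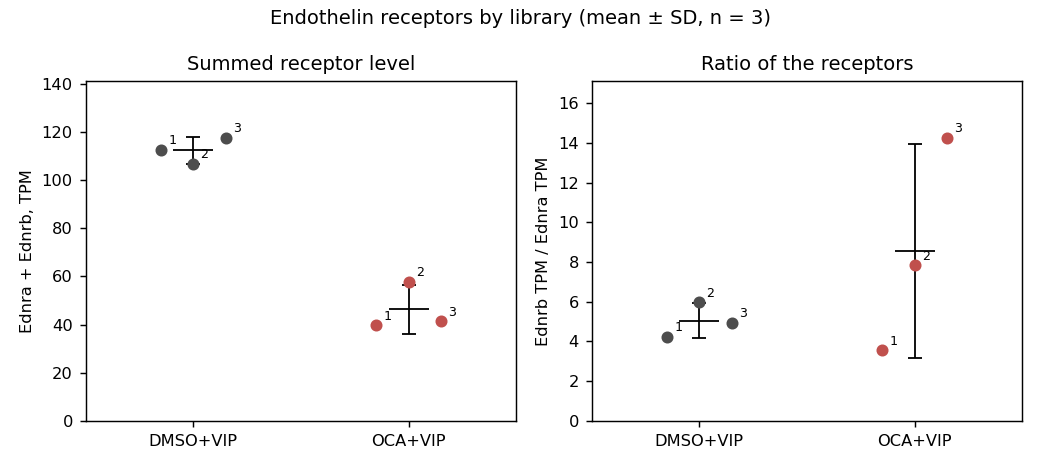
Sum of Ednra and Ednrb in TPM (left axis from 0) and level of Ednrb over that of Ednra (right panel, a ratio without unit) by library; points are libraries and bars the mean and SD (n = 3). The sums separate the groups, 107 to 118 against 39.6 to 57.9 TPM, while the ratios overlap and spread from 3.56 to 14.3 with OCA+VIP.

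Upstream of the receptors, Ece1 encodes the membrane metalloprotease that makes mature endothelin-1 (chromosome 4, 137862237 to 137965229, plus strand). Its level was 192, 173 and 167 TPM in DMSO+VIP libraries 1 to 3 and 101, 139 and 109 TPM in OCA+VIP libraries 1 to 3. It was the most abundant gene of the set in both groups, with means of 177.5 ± 13.05 and 116 ± 20.3 TPM (n = 3), and the groups did not overlap. The log2 fold change was -0.67 (SE 0.12, 95% interval -0.92 to -0.42, edgeR adjusted p = 0.00064), smaller than those of the receptors, and -0.74 to -0.62 with any 1 library left out. RefSeq gives it 4 transcripts with different starts; the table counts a single transcript, so its isoforms were not resolved.

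Ece2, the related enzyme of acidic vesicles, had 18.5, 0 and 3.5 counts in DMSO+VIP libraries 1 to 3 and 7, 27 and 9 counts in OCA+VIP libraries 1 to 3. The vehicle sum of 22 lay just above the floor of 18 counts, and the OCA+VIP sum was 43 (2.12 CPM against a floor of 0.887 CPM). The groups overlapped, and no difference was detectable at this depth. A protein-coding gene on the same strand, Gm49333, shares 57.5% of the exon bases of Ece2, so its reads may be split between the pair. Edn1, the ligand precursor (chromosome 13, 42301476 to 42307990), had a count of 0 in all 3 DMSO+VIP libraries and in OCA+VIP library 1. OCA+VIP libraries 2 and 3 held 33 and 11 counts. Of these 44 counts 33 came from OCA+VIP library 2, and the 11 that remain without it are under the floor of 18 counts, so no fold is given. Without a filter on low counts, Edn1 did not pass (edgeR adjusted p = 0.13). Endothelium is the main source of endothelin-1 in liver. The 14 endothelial markers other than Eng were at 21.3 and 14.04 CPM in OCA+VIP libraries 2 and 3, where Edn1 was counted. In the other 4 libraries these markers were at 5.76 to 9.84 CPM. OCA+VIP libraries 2 and 3 were also the 2 deepest, with totals of 9.95e+06 and 5.80e+06 against at most 4.57e+06 in the others. The part of these markers and of depth in the Edn1 counts was not tested. The paralogs Edn2 and Edn3 had no counts in any library.

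In the angiotensin system the receptor was measurable, the substrate barely and the converting enzyme not. Agtr1a, the main AT1 receptor of mice (chromosome 13, 30336356 to 30382867), was at 7.62, 7.59 and 16.1 TPM in DMSO+VIP libraries 1 to 3 and at 6.69, 6.90 and 8.75 TPM in OCA+VIP libraries 1 to 3. DMSO+VIP library 3 stood above all others, and the groups overlapped. The log2 fold change was -0.53 (SE 0.50, 95% interval -1.58 to 0.51, edgeR adjusted p = 0.55), and without DMSO+VIP library 3 it was -0.065 (0.97). The interval leaves room for a fall as large as that of Ednrb. The paralogs Agtr1b and Agtr2 had no counts in any library.

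Agt (chromosome 8, 124556587 to 124569707) had no counts in the 3 DMSO+VIP libraries and 19.5, 15 and 12 counts in OCA+VIP libraries 1 to 3. All 3 OCA+VIP libraries were above all 3 vehicle libraries. Agt was not among the tested genes; of those, 16.8% separated in this direction. The sum of 46.5 counts is 2.29 CPM over the OCA+VIP libraries, 1.42 times the vehicle floor of 1.61 CPM. With the OCA+VIP count taken as measured, 1.42 is a lower bound on the fold over vehicle. It was too low for the main test, and without a filter on low counts the edgeR adjusted p was 0.051. In CPM, Agt was at 4.30, 1.51 and 2.07 in OCA+VIP libraries 1 to 3, and the 15 hepatocyte markers summed to 469, 297 and 421 CPM in the same libraries and to 185, 202 and 176 CPM in DMSO+VIP libraries 1 to 3. Ass1, the marker that fell, made up 59.9, 57.2 and 76.1 CPM of these OCA+VIP sums. In the DMSO+VIP sums it made up 111, 119 and 99.2 CPM, more than all other markers together. Hepatocytes are the main source of angiotensinogen; the part of these markers in the Agt counts was not tested. Ace had a count of 0 in all 6 libraries, which allows up to 1.61 CPM in the vehicle group and up to 0.887 CPM in the OCA group. The table counts its shorter RefSeq transcript, which starts 7260 bases inside the gene. The 0 therefore covers the counted exons only. By annotation, 91.9% of their bases are shared with the other RefSeq transcripts of Ace, while 2684 bases of those transcripts were not counted.

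**Figure D4:**
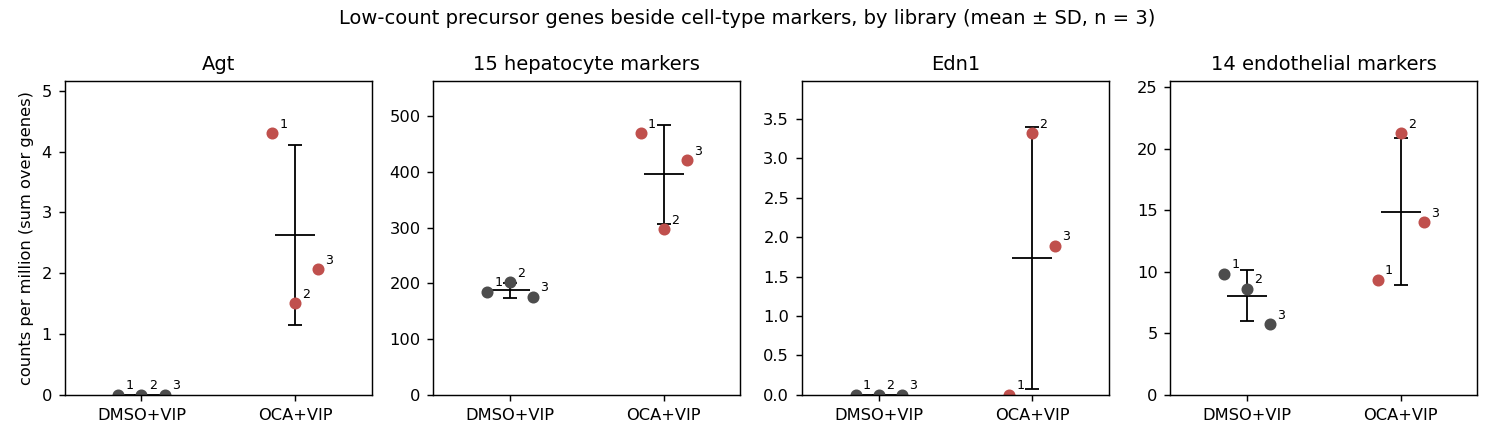
CPM (vertical axes, each from 0) of Agt, the sum of 15 hepatocyte markers, Edn1 and the sum of 14 endothelial markers (without Eng) by library; points are libraries and bars the mean and SD (n = 3). Agt was counted only in the 3 libraries where hepatocyte markers reached 297 CPM or more, and Edn1 only in the 2 libraries where endothelial markers reached 14.04 CPM or more. Those 2 libraries, OCA+VIP libraries 2 and 3, were also the deepest.

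Around these genes, 98 others of the same and of opposing pathways were set in 5 lists; 19 had no counts, 60 were tested, 9 of these fell, 4 rose and 47 did not pass (11.8% of all tested genes passed). The median log2 fold change of the 60 was -0.12, against 0.001 for all tested genes. Of the other endothelin genes, the 3 tested were Furin (148 ± 27.5 and 167 ± 27.3 CPM), which cuts the precursor, Pcsk6 and Pcsk7, and 0 of the 3 passed the edgeR test, DESeq2 or limma-voom (0 at an unadjusted p under 0.05 in edgeR). Among 17 other angiotensin genes, 9 were tested and Anpep fell. Anpep, aminopeptidase N, trims angiotensin peptides and was at 102 ± 17.5 CPM with vehicle and 49.3 ± 13.3 CPM with OCA. The log2 value for Anpep was -1.07 ± 0.18 (SE) at an edgeR adjusted p of 0.000305. Ren1, which encodes renin, and the Mas receptor gene Mas1 had no counts, and the prorenin receptor gene Atp6ap2 had 285 ± 34.4 and 253 ± 1.497 CPM and did not pass (log2 fold change -0.19).

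For the signalling steps that ETA and AT1 share, from Gq and G12/13 to calcium and myosin, 28 of 35 genes were tested. Of these 3 rose, 2 fell and 23 did not pass (11.8% of all tested genes passed), and the list's median was -0.09 on the log2 scale. Several genes of the trunk of this pathway did not pass: log2 fold changes were -0.29 and -0.01 for the G protein genes Gnaq and Gna11, and 0.08 and -0.07 for the kinase genes Rock1 and Rock2. Itpr1 and Gna12 leaned lower (-0.51 and -0.43) and Ppp1r12a higher (0.32), also without passing. Their unadjusted edgeR p-values were 0.00997, 0.0294 and 0.0144. Mylk, myosin light chain kinase, fell (-0.97, edgeR adjusted p = 0.019), as did Ppp3ca, the catalytic subunit of the phosphatase calcineurin (-0.61, 0.035). Rcan1, a calcineurin regulator that calcium induces, rose (0.67, 0.0023), as did Prkcd, protein kinase C delta (0.62, 0.026), and Arhgef12, which encodes an exchange factor that G12/13 activates (0.41, 0.024). These calls except that of Rcan1 were lost when some libraries were left out, while the log2 fold changes kept their direction: -1.14 to -0.80 for Mylk, 0.37 to 0.47 for Arhgef12, 0.57 to 0.70 for Prkcd and -0.72 to -0.49 for Ppp3ca. Mylk did not pass without DMSO+VIP library 1 or OCA+VIP library 3 (edgeR adjusted p = 0.085 and 0.105), and Arhgef12 did not without any of the DMSO+VIP libraries or OCA+VIP library 1 (0.066 to 0.11). Prkcd was lost without DMSO+VIP library 1 or 2 or OCA+VIP library 1 or 3 (edgeR adjusted p from 0.079 to 0.095), and Ppp3ca without any library but OCA+VIP library 2 (0.051 to 0.15). The number of lower genes in this list was 0 without DMSO+VIP library 1 or OCA+VIP library 3, but 1 without DMSO+VIP library 2 or 3 or OCA+VIP library 1. It was 4 when OCA+VIP library 2 was dropped. The number that rose was 1 when DMSO+VIP library 1 or 2 or OCA+VIP library 1 was dropped.

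Among the kinases, arrestins and RGS proteins that shut such receptors off, 9 of 11 genes were tested, 3 fell and 6 did not pass (11.8% of all tested genes passed). In edgeR, DESeq2 and limma-voom 0 rose (0 at an unadjusted p under 0.05 in edgeR), and the list's median was -0.13 on the log2 scale. The receptor kinase genes Grk5 and Grk6 went from 65.03 ± 12.8 to 35.02 ± 3.04 CPM and from 79.8 ± 22.7 to 44.8 ± 4.21 CPM, with log2 fold changes of -0.91 and -0.86 (edgeR adjusted p = 0.00245 and 0.00356). Rgs2, an inhibitor of Gq, went from 13.8 ± 2.32 to 4.82 ± 1.86 CPM (-1.54, edgeR adjusted p = 0.036). Rgs2 was not called without any library but OCA+VIP library 2 (0.052 to 0.14) and Grk6 not without DMSO+VIP library 1 (0.057), where 1 gene of the list fell. Grk2 and the arrestin genes Arrb1 and Arrb2 had log2 fold changes of 0.04, -0.21 and -0.13.

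Of 25 genes of pathways that oppose or parallel these constrictors 11 were tested, 3 fell, 1 rose and 7 did not pass (11.8% of all tested genes passed), and the list's median was -0.29 on the log2 scale. Gucy1a1 and Gucy1b1, the subunits of the soluble guanylyl cyclase through which nitric oxide relaxes stellate cells, went from 143 ± 16.3 to 45.6 ± 15.1 CPM and from 148 ± 12.6 to 81.9 ± 27.6 CPM (n = 3). These are log2 fold changes of -1.66 (SE 0.18, edgeR adjusted p = 1.9e-06) and -0.87 (SE 0.17, 0.0019). Npr3, the clearance receptor of natriuretic peptides, went from 36.3 ± 1.95 to 12.8 ± 5.97 CPM (-1.51, edgeR adjusted p = 0.0012). Of the other natriuretic peptide genes tested, Nppb (log2 fold change 0.55, edgeR adjusted p = 0.0548) and Npr2 (-0.58, 0.112) did not pass. Adm, the precursor of the vasodilator adrenomedullin, rose from 90.4 ± 3.97 to 226 ± 28.2 CPM (1.31, SE 0.14, edgeR adjusted p = 1.53e-06), while its receptor gene Calcrl did not pass (-0.21). A second gene of the list rose without OCA+VIP library 2.

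**Figure D5:**
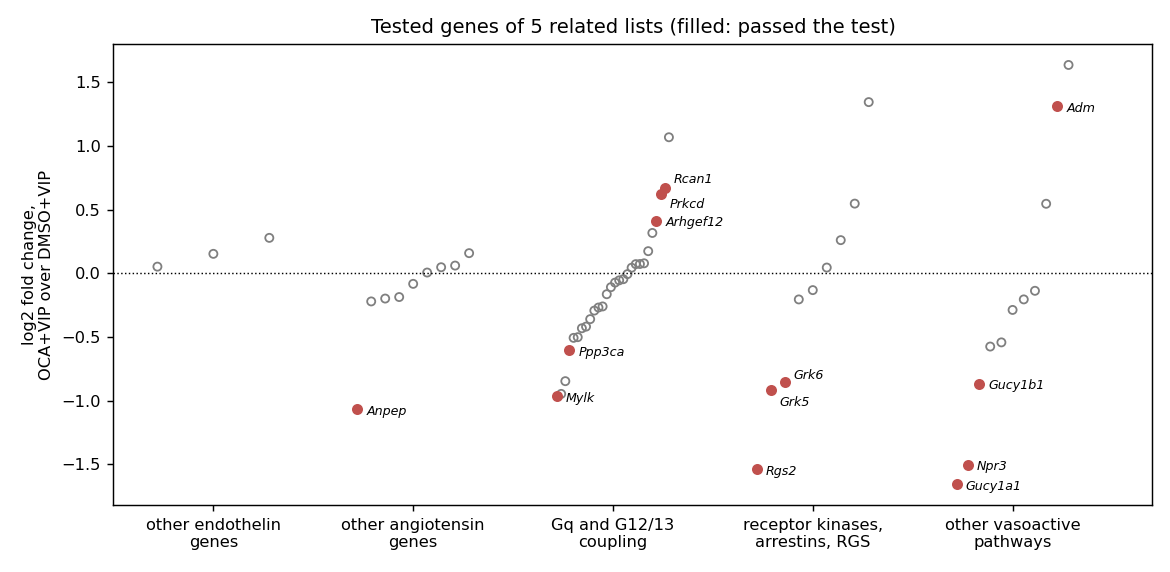
Log2 fold change of OCA+VIP over DMSO+VIP (vertical axis) of the 60 tested genes in 5 related lists (horizontal axis), ordered by size within each list; filled and named points passed the test, and open points did not. The points that passed are 9 below 0, from Gucy1a1 at -1.66 to Ppp3ca at -0.61, and 4 above 0, up to Adm at 1.31.

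The genes whose log2 CPM over the 6 libraries was most like that of Ednra were Jdp2, Lrrc20, Hk2, Ccdc167 and Pgpep1, with Pearson r of 0.991 to 0.997. Those most like Ednrb were Fto, Adra2b, Ets2, Adprhl2 and Cep170b, with r of 0.995 to 0.998. They were the highest of 8782 candidate genes, and the 6 points of each pair share library and depth. These points span both groups, so r includes the difference between groups, and r takes no account of the size of a change. Adra2b, an adrenergic receptor gene, and Ets2, a transcription factor gene, fell more than Ednrb in point estimate (log2 fold changes -2.79 and -1.32), whereas Fto, an RNA demethylase gene, had -0.45. Hk2, hexokinase 2, had -0.92, and Jdp2, an AP-1 repressor gene, -0.41 (edgeR adjusted p = 0.0493). Lrrc20 and Ccdc167 did not pass (edgeR adjusted p = 0.557 and 0.179). Ccdc167 shares 38.1% of its exon bases with Cmtr1 on the opposite strand, and whether counting used strand is not stated.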

How the data were processed

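The authors deposited exon counts for 24940 genes, 1 RefSeq transcript each, in the layout HOMER writes; per the deposited table they are expected counts in steps of 0.5, not adjusted for library size. The submitters' processing notes list mm10, DESeq2, HOMER and STAR without saying what each did or which version was used; strand and duplicate handling are not given in the sources used here. Columns were assigned to groups by name, and their numbers could not be matched to the letters in the titles, so libraries are numbered as the columns are.

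Rounded counts entered edgeR 4.0.16 (R 4.3.3, with limma 3.58.1): TMM, filterByExpr (minimum count 10, minimum total 15), quasi-likelihood F test, two-sided, Benjamini-Hochberg adjustment over the 11286 genes tested, threshold 0.05. SE is the size of the log2 fold change over the square root of F, and intervals are 95%. The steps were tested on simulated data. TPM and CPM were computed from the counts and column totals, and errors are SD. Alternatives were 3 other scalings, 2 other filters, DESeq2 1.42.0, limma-voom, counts divided by 6, a replicate block and leaving out each library.

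The genes, lists and tests were chosen with earlier results of these data known. Named genes are the 8 of the set, from each list up to 5 that passed and averaged 1 CPM or more, and the 5 genes most like Ednra and Ednrb in log2 CPM (prior count 2) that averaged 10 CPM or more; others are named as background for their lists, chosen after their values were seen. Exon overlaps come from GENCODE M21 and promoters from RefSeq (Python 3.11.15, pandas 2.3.3, matplotlib 3.10.9).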

Additional observations from a re-analysis of the deposited data

How the results depend on the processing

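Ednra, Ednrb and Ece1 were called lower and Agtr1a was not called in every fit that tested them: 9 with another scaling, filter or test for the first 3 genes, 8 for Agtr1a (too low when counts were divided by 6), and 6 with a library left out. Leaving out 1 library gave 3 lower and 0 higher genes of the set each time, 5 to 11 lower and 2 to 5 higher genes of the 5 related lists, and 737 to 1478 called genes in all. The difference in summed receptor level was -71.8 to -62.6 TPM in these fits, and the difference in log2 ratio was -1.08 to -0.079. With library size as the only scaling, without a filter, or with the replicate block, 2 genes of the list of opposing pathways rose, and with library size alone 1 gene of the Gq and G12/13 list fell. With the column number as a replicate block, log2 fold changes were -1.80, -1.29 and -0.67 for Ednra, Ednrb and Ece1, all called, Arhgef12 and Rgs2 were not called (edgeR adjusted p = 0.056 and 0.062), and 1118 genes were called in all. No pairing by number was detected: deviations of same-numbered libraries from their group means correlated at -0.050 to 0.030, and those of differently numbered libraries at -0.031 to 0.078. With 3 libraries a group, such correlations cannot settle whether the libraries were paired. Upper-quartile scaling moved the median log2 fold change of all genes to -0.04. Depth limits Edn1, Ece2, Agt and Ace, and Ednra in OCA+VIP library 3.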
